A study of Mus musculus with 6 samples.

Results

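The genes described here are 33 genes of homologous recombination and of the Fanconi anaemia pathway, chosen by name, and all 33 had a row among the 24181 genes of the count table. They were measured by 3'-end RNA sequencing in MC38, a mouse cell line from a colon adenocarcinoma, cultivated in DMEM. Samples fall into 2 groups of 3: parental cells of genotype WT, and cells expressing STING-N153S, a mutant of the endoplasmic reticulum adaptor of cytosolic DNA sensing; which promoter drives it, and whether the cells are 1 clone, the labels do not say. Only the columns of the 3 parental samples could be matched by name, so the levels below are those of parental cells, and the mutant samples were not analysed here.

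Homologous recombination repairs a double-strand break by copying the intact sister DNA, and therefore works mainly in S and G2 phase. The MRE11-RAD50-NBS1 complex resects the ends, BRCA1 with BARD1 and BRCA2 with PALB2 place the strand-exchange recombinase on single-stranded DNA, and helicases later resolve the joint molecules. The Fanconi pathway uses the same machinery at interstrand crosslinks: its core complex ubiquitinates the FANCD2-FANCI pair, which then directs incision and recombination. Loss of these genes gives genome instability, and in people inherited defects predispose to breast, ovarian and other cancers.

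The parental libraries held 3210024 to 4020023 counts, so that 1 count corresponded to 0.249 to 0.312 CPM, a gene's count scaled to a library total of 1000000. Of 9 colon epithelial markers, 4 had a row, and Krt19, Vil1 and Krt8 had 1 count each over the 3 libraries and Lgr5 had 0. Of 7 fibroblast markers, 4 reached a mean of 1 CPM, with Col3a1 at 115 ± 8.80 CPM (SD, n = 3). Myeloid, lymphocyte and endothelial markers with a row stood below 1 CPM. The deposited annotation lists the 3 libraries as biological replicates, without saying whether these were separate cultures.

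All 33 genes had counts in every parental library, from 7 to 434 counts. Their means were at or above 1 CPM in all 33, at or above 10 CPM in 23 and above 100 CPM in 1. Of all 24181 genes, 11964 reached 1 CPM. The 11118 genes with enough counts to be tested all reached it, as the count minimum ensures. Of these, 7553 reached 10 CPM and 2064 reached 100 CPM. The median gene of the set stood at 16.4, 14.4 and 13.4 CPM in replicates 1 to 3, a mean of 14.7 ± 1.51 CPM (SD, n = 3). Over the 11118 genes with enough counts to be tested the median was 22.3 ± 0.33 CPM (SD, n = 3), and 10 of the 33 stood above that of mean CPM, 22.2. The other 23 stood below it. These are bulk libraries, in which fewer cells with a transcript and less RNA per cell cannot be told apart.

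The level of a gene is given as CPM without division by length, because 3'-end libraries take fragments from the end of each transcript. Transcript lengths of the 33 genes ran from 1691 to 10724 bases, and values per kb of the longest protein-coding transcript are given where levels of different genes are set side by side. Over the 33 genes, Spearman's rho of CPM with transcript length was 0.18, a description over genes that share the same libraries. Of the 10 genes with the highest CPM, 8 were also among the 10 highest in CPM per kb.

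The 3 genes of the MRE11-RAD50-NBS1 complex, which binds and trims broken ends and activates ATM, held the first 3 places by mean CPM, Mre11a only just: it had 40.33 ± 6.98 CPM and the next gene, Rad54l, 40.30 ± 3.14 CPM (SD, n = 3). In replicate 3, and in the mean without replicate 1 or without replicate 2, Mre11a was below Rad54l, and per kb it ranked 8. Rad50, the ATPase that bridges the ends (chromosome 11, 53649519 to 53707319, GRCm38, minus strand), was read 368, 434 and 331 times in replicates 1 to 3. That is 109.6, 108 and 103 CPM, on average 107 ± 3.36 CPM (SD, n = 3). Nbn, which encodes the NBS1 subunit, had 44.4, 48.8 and 52.3 CPM, and the nuclease gene Mre11a had 45.6, 43.0 and 32.4 CPM. Rad50 was above both partners in CPM in every library, and its range did not overlap theirs. Per kb the order narrowed, with Rad50 at 20.7 ± 0.65, Nbn at 19.1 ± 1.58 and Mre11a at 7.13 ± 1.23 CPM per kb (SD, n = 3), and in replicate 3 Nbn was above Rad50. The complex accounted for 29.5% of the CPM of all 33 genes, which summed to 664 CPM.

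Brca1, the ubiquitin ligase and tumour suppressor that favours resection (chromosome 11, 101488764 to 101551955, minus strand), had 33.0, 30.8 and 24.6 CPM, a mean of 29.5 ± 4.38 CPM (SD, n = 3). Its obligate partner Bard1 had 62, 73 and 32 counts, or 18.5, 18.2 and 9.97 CPM. Replicates 1 and 2 were close to each other for Bard1, and replicate 3 lay below them. Brip1, the BRCA1-bound helicase that is also a Fanconi gene (FANCJ), had 20.8, 18.7 and 16.8 CPM. Brca2, which carries the recombinase to single-stranded DNA, had 31.9, 38.1 and 27.4 CPM, a mean of 32.4 ± 5.35 CPM (SD, n = 3). Palb2, the bridge between BRCA1 and BRCA2, stood lower, with 5.66, 6.72 and 7.79 CPM. Rad52, an annealing factor with a back-up role in mammals, had 37, 26 and 28 counts, on average 8.74 ± 2.27 CPM (SD, n = 3). The ranges of Brca2 and Palb2 did not overlap, in CPM or in CPM per kb, where the means were 3.03 ± 0.50 and 1.79 ± 0.28 (SD, n = 3).

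The 5 recombinase paralogs, which stabilise the nucleoprotein filament in the BCDX2 and CX3 complexes, differed in level. Rad51b was the highest with 14.3, 12.2 and 17.1 CPM, followed by Rad51d with 11.9, 9.95 and 13.4 CPM. Rad51c, the only one that is in both complexes, had 6.25, 10.9 and 6.54 CPM, with replicate 2 above the others. Xrcc3 had 6.81 ± 1.38 CPM and Xrcc2 5.84 ± 0.97 CPM (SD, n = 3), and the library ranges of Rad51c, Xrcc3 and Xrcc2 overlapped. Every library of Rad51b was above every library of these 3. Per kb, Rad51b stood at 6.65 ± 1.13, Rad51d at 3.43 ± 0.50, Xrcc3 at 2.81 ± 0.57, Rad51c at 2.01 ± 0.67 and Xrcc2 at 1.80 ± 0.30 CPM per kb (SD, n = 3). The translocases that remodel the filament were far apart: Rad54l had 38.4, 38.6 and 43.9 CPM and its paralog Rad54b had 5.95, 3.98 and 3.43 CPM. Every library of Rad54l was above every library of Rad54b. Their transcripts are of like length, 3025 and 2870 bases.

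Of the dissolvasome, which unties double Holliday junctions without crossover, the set holds 3 genes, and they lay close together. The helicase gene Blm had 18.8, 20.4 and 14.0 CPM, Rmi1 17.6, 15.9 and 14.6 CPM and Rmi2 17.0, 16.9 and 12.5 CPM. The means of 17.7 ± 3.31, 16.0 ± 1.47 and 15.4 ± 2.59 CPM (SD, n = 3) did not differ beyond the spread between libraries.

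**Figure D1:**
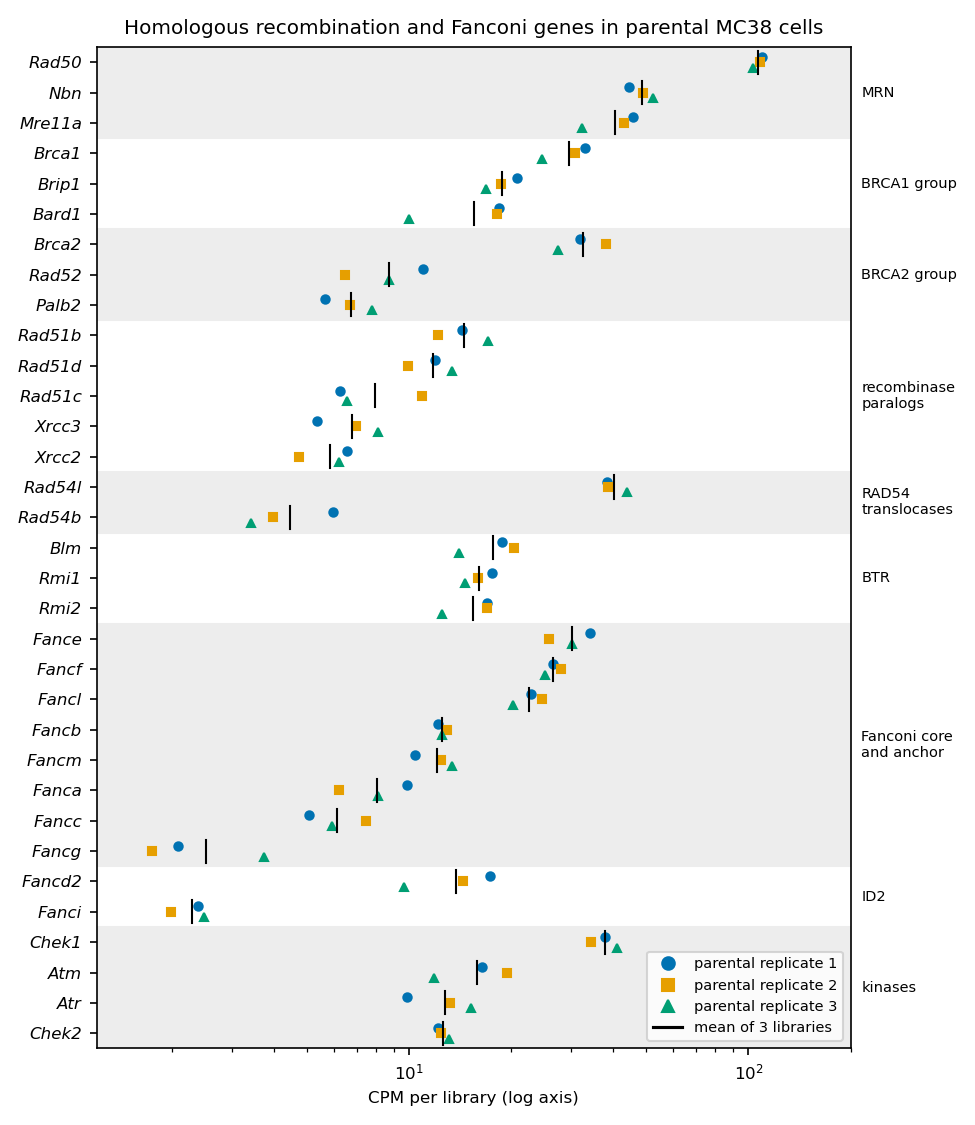
CPM of each of the 33 genes in the 3 parental libraries (points, log axis), grouped by role, with the mean as a black bar. Rad50 is at the top of the range with a mean of 107 CPM, and Fancg and Fanci are at its bottom, between 1.74 and 3.74 CPM.

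The Fanconi core complex and its anchor were uneven. Fance, the subunit that contacts FANCD2, had 34.2, 25.9 and 30.2 CPM, Fancf 26.5, 28.1 and 25.2 CPM and Fancl, the ubiquitin ligase subunit, 22.9, 24.6 and 20.2 CPM. These 3 stood above the other 5 in every library. Fancb, which with Fancl forms part of the catalytic module, had 12.2, 12.9 and 12.5 CPM, and Fancm, the translocase that anchors the core to DNA, had 10.4, 12.4 and 13.4 CPM. Fanca had 8.05 ± 1.80 CPM and Fancc 6.15 ± 1.22 CPM (SD, n = 3). Fancg (chromosome 4, 43002343 to 43010506, minus strand) had 7, 7 and 12 counts, or 2.08, 1.74 and 3.74 CPM. Per kb the same 3 genes led, Fancf with 15.7 ± 0.85, Fance with 14.9 ± 2.07 and Fancl with 8.30 ± 0.81 CPM per kb, and Fancg was last with 0.910 ± 0.385 CPM per kb (SD, n = 3).

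The targets of the core complex, FANCD2 and FANCI, form a clamp of 1 molecule each on DNA, but their transcripts were counted unequally. Fancd2 (chromosome 6, 113531682 to 113597017, plus strand) had 58, 58 and 31 counts, or 17.3, 14.4 and 9.66 CPM. Fanci (chromosome 7, 79391929 to 79450264, plus strand) had 8 counts in each library, or 2.38, 1.99 and 2.49 CPM, the lowest mean of the set. Over the pooled counts, Fanci stood at 2.27 CPM, with an exact 95% Poisson interval from 1.45 to 3.37 CPM that covers counting error only. A gene on the other strand covers the annotated 3' end of both: Polg, at 12.4 CPM, for Fanci, and Fancd2os, at 0.166 CPM, for Fancd2. In all, such a protein-coding gene lies over the end of 7 of the 33 genes, Xrcc3, Rad54l, Fanca, Fancc, Fancl, Fancd2 and Fanci. The share over all genes was not computed. Of the covering genes with a row, the highest were Klc1, at 173 CPM, over Xrcc3, and Lrrc41, at 88.1 CPM, over Rad54l. Use of strand in the authors' counting was not given in the sources used here. Reads of the genes on both strands may therefore be mixed at these ends, and the levels of these 7 are uncertain.

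The damage kinases were led by Chek1, the S-phase and G2 checkpoint kinase, with 37.8, 34.3 and 41.1 CPM, a mean of 37.8 ± 3.40 CPM (SD, n = 3). Chek2, which acts after double-strand breaks, had 12.2, 12.4 and 13.1 CPM, below Chek1 in every library. Atm, the kinase for double-strand breaks, had 16.4, 19.4 and 11.8 CPM, and Atr, the kinase for single-stranded DNA at forks, had 9.82, 13.2 and 15.3 CPM. The ranges of Atm and Atr overlapped: Atm was above Atr in replicates 1 and 2 and below it in replicate 3. Per kb Chek1 stood at 9.94 ± 0.89, Chek2 at 5.53 ± 0.20, Atm at 1.62 ± 0.39 and Atr at 1.57 ± 0.34 CPM per kb (SD, n = 3).

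In the order of mean CPM, most neighbours could not be told apart. Of the 32 pairs of genes next to each other in that order, 30 had library ranges that overlapped.

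The position of these genes was then examined. Of the 33 genes, 12 (36.4%) start within 1000 bases of a protein-coding gene on the opposite strand, against 2175 of the 14194 protein-coding genes in the table (15.3%), by GENCODE M21 on GRCm38. Within 500 bases the shares were 33.3% and 12.7%. Both backgrounds include genes with too few counts to be tested, whereas all 33 genes of the set were tested. The shares over tested genes were not computed. In head-to-head pairs whose bodies lie apart, a short stretch of DNA lies between both starts and can serve transcription in both directions. Such use was not tested here. The promoters of 3 of the pairs are shown, as RefSeq gives them on GRCm38.p6 from 250 bases before to 50 after the start of the repair gene, read along its strand. Capitals mark the bases from the start of the neighbour to the start of the repair gene by GENCODE.
Brca1 / Nbr1 (chr11:101551906-101552205, minus strand): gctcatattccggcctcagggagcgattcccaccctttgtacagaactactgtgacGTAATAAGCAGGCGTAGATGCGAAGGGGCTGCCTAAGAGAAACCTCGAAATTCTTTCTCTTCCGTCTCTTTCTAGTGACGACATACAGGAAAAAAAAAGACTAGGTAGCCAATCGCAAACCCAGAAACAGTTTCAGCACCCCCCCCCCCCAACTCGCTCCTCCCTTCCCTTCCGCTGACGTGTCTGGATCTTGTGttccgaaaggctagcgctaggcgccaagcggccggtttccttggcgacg
Palb2 / Dctn5 (chr7:122132897-122133196, minus strand): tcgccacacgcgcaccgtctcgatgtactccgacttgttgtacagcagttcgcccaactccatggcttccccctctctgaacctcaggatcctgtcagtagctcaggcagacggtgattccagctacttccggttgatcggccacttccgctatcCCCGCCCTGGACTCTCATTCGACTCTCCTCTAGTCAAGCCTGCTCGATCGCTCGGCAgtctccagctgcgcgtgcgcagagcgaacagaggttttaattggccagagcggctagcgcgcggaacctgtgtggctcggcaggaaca
Chek2 / Hscb (chr5:110839733-110840032, plus strand): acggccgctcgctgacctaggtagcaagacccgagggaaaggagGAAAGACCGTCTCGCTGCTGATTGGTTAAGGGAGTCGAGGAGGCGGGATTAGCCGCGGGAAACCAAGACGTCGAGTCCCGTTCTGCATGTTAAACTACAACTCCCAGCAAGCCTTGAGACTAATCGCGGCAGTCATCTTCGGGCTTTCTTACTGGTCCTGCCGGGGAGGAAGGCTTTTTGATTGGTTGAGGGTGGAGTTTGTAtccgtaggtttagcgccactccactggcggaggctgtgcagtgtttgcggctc

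The stretch between the starts was 195 bases for Brca1, 57 bases for Palb2 and 203 bases for Chek2, both start bases included. The genes on both sides were not at equal levels. Brca1 stood at 29.5 ± 4.38 CPM beside 7.44, 11.4 and 8.72 CPM of Nbr1, an autophagy receptor gene. Palb2 stood at 6.72 ± 1.07 CPM beside 44.1, 54.5 and 53.6 CPM of Dctn5, a dynactin subunit gene (SD, n = 3). Chek2 stood at 12.6 ± 0.45 CPM beside 40.5, 38.1 and 35.5 CPM of Hscb, a gene of iron-sulfur cluster assembly (SD, n = 3). For Brca1 the repair gene was the higher in every library, and for Palb2 and Chek2 the neighbour was.

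Over the 12 pairs, the neighbour was higher in all 3 libraries in 7 and lower in all 3 in 4. Fancd2 and Emc3, a gene of membrane protein insertion, start 30 bases apart, and Emc3 had 111 ± 9.68 CPM against 13.8 ± 3.85 CPM of Fancd2 (SD, n = 3). Rad51c and the germ cell gene Tex14 start 111 bases apart, and Tex14 had 1 count in each library. Atm and Npat, a coactivator of histone genes, start 307 bases apart, had 15.9 ± 3.81 and 16.8 ± 1.45 CPM (SD, n = 3), and were the pair that changed order between libraries. The bodies of Mre11a and Ankrd49, and of Fancf and Gas2, overlap at their starts, which lie 202 and 252 bases apart. The overlap does not reach the annotated 3' ends of Mre11a and Fancf. Its effect on the counts of these 4 genes was not tested. These are CPM values, not divided by length.

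**Figure D2:**
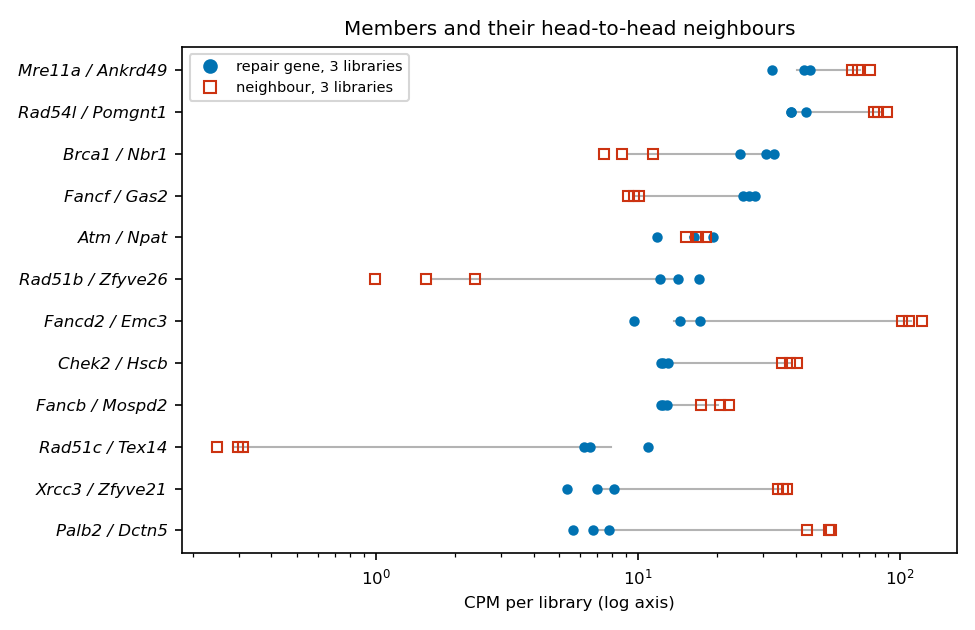
CPM (log axis) of the 12 repair genes (filled circles) and of the protein-coding genes that start head to head with them (open squares), 1 point per parental library, with a line joining the means. The neighbour is higher in all libraries in 7 pairs and lower in 4, and the points of Atm and Npat interleave.

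Words of the E2F site, the element bound by the factors that switch on S-phase genes, were searched in the promoters, of which 26 of the 33 genes had one in the RefSeq table. The words were TTTCCCGC, TTTGGCGC, TTTGCCGC and TTTCGCGC on both strands. At least 1 of them occurred in 5 of the 26 promoters (19.2%), against 626 of 27025 promoters of the same length (2.32%) and 396 of the 8280 promoters of tested genes (4.78%). The 5 are shown with 12 bases on each side, on the strand of the gene, with the word in capitals.
Brca2 (chr5:150522441-150522472, plus strand): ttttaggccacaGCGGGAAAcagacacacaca
Bard1 (chr1:71103162-71103193, minus strand): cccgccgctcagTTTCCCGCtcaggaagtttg
Chek2 (chr5:110839819-110839850, plus strand): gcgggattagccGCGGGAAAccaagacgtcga
Rad51c (chr11:87404476-87404507, minus strand): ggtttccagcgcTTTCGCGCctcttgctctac
Fancg (chr4:43010334-43010365, minus strand): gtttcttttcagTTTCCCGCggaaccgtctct

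These 5 genes stood between 2.52 CPM (Fancg) and 32.4 CPM (Brca2), with a median of 12.6 CPM, and the 21 promoters without a word belonged to genes between 2.29 and 40.3 CPM, with a median of 15.9 CPM. The levels of genes with and without a word overlapped over nearly the whole range. The word CCAAT, on either strand, occurred in 17 of the 26 promoters (65.4%), among them all 3 shown above, against 37.9% of all promoters and 40.1% of those of tested genes. The genes that hold it stood between 6.15 and 40.3 CPM. A match describes the letters of this window and shows no binding. The windows follow RefSeq starts, which can differ from those of GENCODE. By GENCODE, Rad51c starts at 87404954 and Fancg at 43010506, so the stretches shown for these genes lie inside them.

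Partner genes were next compared within each library by the ratio of their counts, with an exact (Clopper-Pearson) 95% interval over the pooled counts that covers counting error only. Of 18 ratios, 10 lay on the same side of 1 in all 3 libraries. The largest was Rad54l to Rad54b, with 6.45, 9.69 and 12.8 in replicates 1 to 3 and a pooled ratio of 9.04 (6.68 to 12.5). Fancd2 exceeded Fanci by 7.25, 7.25 and 3.88 times, pooled 6.13 (3.96 to 9.86), and Brca2 exceeded Palb2 by 5.63, 5.67 and 3.52 times, pooled 4.90 (3.79 to 6.42). Per kb of transcript the pooled ratios were 8.58, 5.16 and 1.71, all still above 1. The ends of Rad54l, Fancd2 and Fanci, and of Xrcc3 and Fanca in other ratios, are covered by a gene on the other strand. The ratios that use these genes are uncertain, among them Rad51c to Xrcc3. The ratio of Brca1 to Bard1, partners in 1 heterodimer, was 1.79, 1.70 and 2.47, pooled 1.88 (1.55 to 2.28), and 1.62 per kb.

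The dissolvasome genes were near parity. Rmi1 to Rmi2 gave 1.04, 0.941 and 1.18, pooled 1.03 (0.827 to 1.28), and Blm to Rmi1 gave 1.07, 1.28 and 0.957, with a pooled interval of 0.904 to 1.38. Both intervals held 1. Division by length moved 5 of the 18 pooled ratios across 1: Rad51c to Xrcc3 (from 1.19 to 0.734), Rmi1 to Rmi2 (to 0.915), Blm to Rmi1 (to 0.987), Chek2 to Atm (from 0.778 to 3.36) and Rad52 to Brca2 (from 0.261 to 1.66). For Rad51c to Xrcc3 the pooled interval, 0.863 to 1.66, also held 1, so counts alone left this pair and the 2 dissolvasome pairs undecided. For Chek2 to Atm and Rad52 to Brca2 the intervals of the count ratio lay below 1, 0.615 to 0.981 and 0.205 to 0.330. Rad52 was below Brca2 in every library on the scale of counts, the one used here for 3'-end libraries, and above it per kb. Chek2 to Atm gave 0.745, 0.641 and 1.11 in replicates 1 to 3. The libraries disagreed, and the interval covers counting error only, so the order of Chek2 and Atm on the scale of counts was left undecided.

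**Figure D3:**
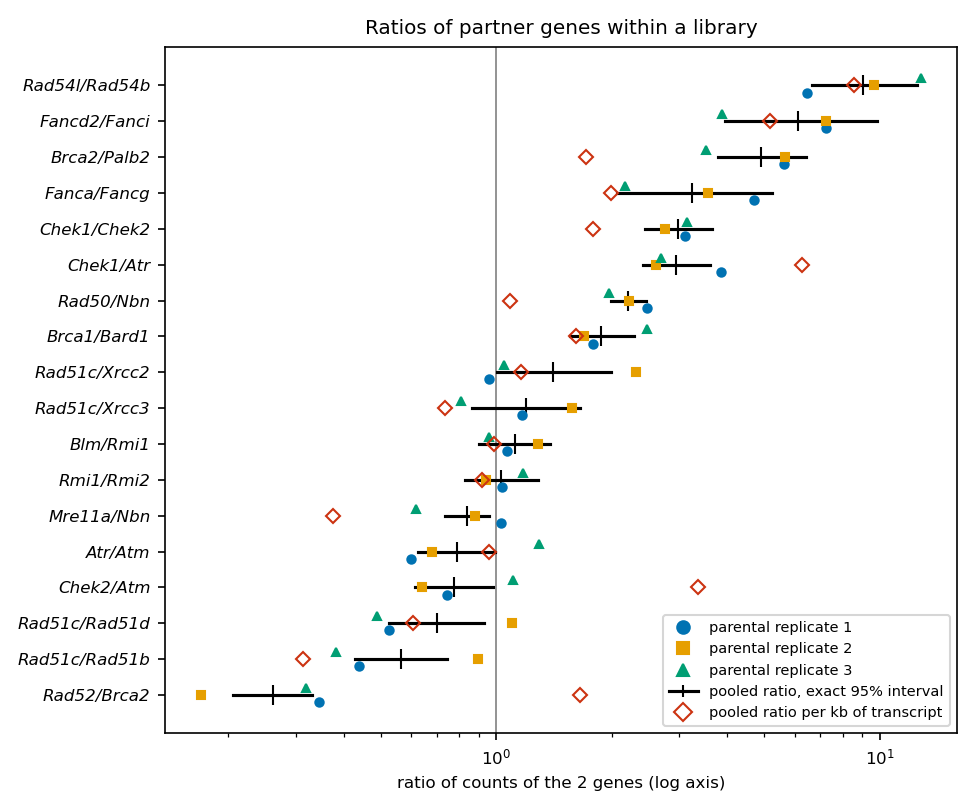
Ratio of the counts of 2 partner genes (log axis) in each parental library (coloured points), over the pooled counts with its exact 95% interval (black), and per kb of transcript (open diamonds). Rad54l/Rad54b, Fancd2/Fanci and Brca2/Palb2 lie above 1 in all libraries, and 5 diamonds lie on the other side of 1 from their black mark.

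The libraries were also compared with each other, which measures the spread between replicates and no condition. By a chi-square test of counts over all genes with Benjamini-Hochberg adjustment, 0 of the 33 genes varied between the parental libraries, against a background of 2.80% (311) of the 11118 genes tested. Without replicate 3, the count over all genes was 61 in place of 311, and that of the set was again 0. At an unadjusted p below 0.05, 6 of the 33 (18.2%) were listed, against 13.2% of all genes tested, and pairwise exact binomial tests listed 4 at that threshold and 0 after adjustment. The 6 were Bard1, Mre11a, Fancd2, Atm, Rad51c and Brca2, named after their values were seen. The smallest adjusted p was that of Bard1, 0.141 by the chi-square test and 0.238 by pairwise exact binomial tests. The largest of these differences, between the highest and the lowest library after scaling, were 1.86-fold for Bard1, 1.80-fold for Fancd2 and 1.73-fold for Rad51c.

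Of these 6 genes, 5 had their lowest value in replicate 3: Bard1 (9.97 CPM against 18.2 and 18.5), Fancd2 (9.66 against 14.4 and 17.3), Atm (11.8 against 16.4 and 19.4), Brca2 (27.4 against 31.9 and 38.1) and Mre11a (32.4 against 43.0 and 45.6). The same share among all tested genes below 0.05 was not computed. Over all tested genes, the number varying after adjustment was 213 without replicate 1, 274 without replicate 2 and 61 without replicate 3. Without replicate 3, none of these 5 was below an unadjusted p of 0.05, and the number of genes listed was 3 (Rad51c, Rad52 and Fance) in place of 6. The 5 were picked for being lowest in replicate 3, so their loss is no separate evidence. Without replicate 1 the number listed was 6, and without replicate 2 it was 4. Over the whole set, 14 of the 33 genes (42.4%) had their lowest scaled count in replicate 3, against 35.4% of all tested genes, while 9 were lowest in replicate 1 and 10 in replicate 2. The summed CPM was 72.3, 67.7 and 51.4 for Brca1, Bard1 and Brip1, and 53.3, 53.2 and 41.1 for the dissolvasome. The 5 recombinase paralogs went the other way, with 44.4, 44.8 and 51.4 CPM. So did Rad54l with Rad54b, at 44.4, 42.5 and 47.4 CPM, and the damage kinases, at 76.2, 79.4 and 81.3 CPM. The Fanconi core and anchor had 123, 119 and 119 CPM, and the MRE11-RAD50-NBS1 complex 199, 200 and 188 CPM. Brca2, Palb2 and Rad52 had 48.5, 51.2 and 43.9 CPM, and Fancd2 with Fanci 19.6, 16.4 and 12.1 CPM. These sums include the genes listed above and are not independent of them. Of 18 DNA replication genes, 5 were lowest in replicate 3, and their median was 122, 126 and 128 CPM.

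**Figure D4:**
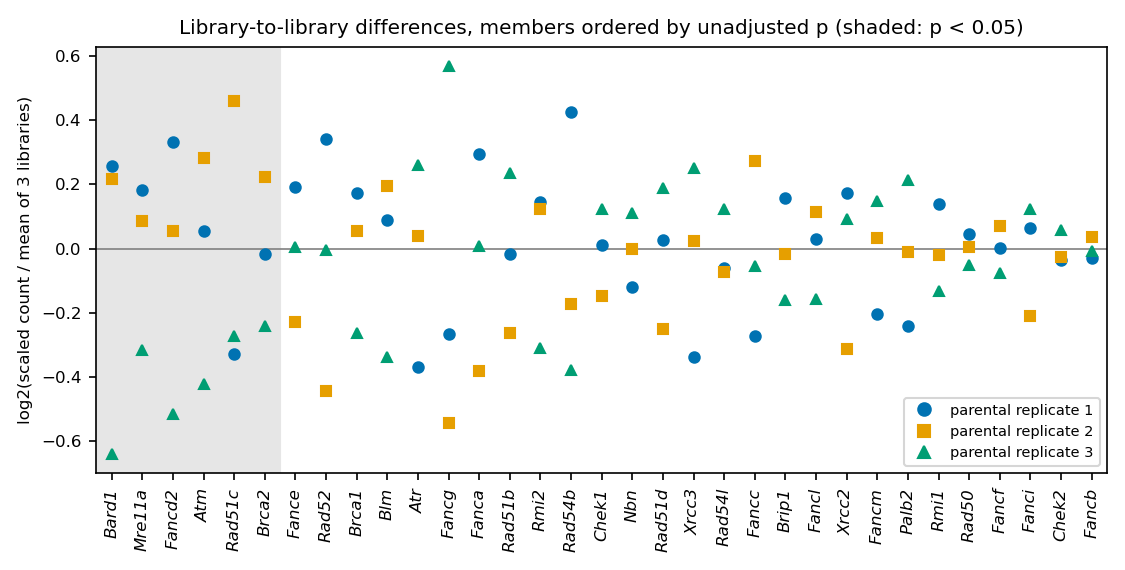
Log2 of the scaled count of each gene in a library over its mean of the 3 libraries, genes ordered by the unadjusted p of the chi-square test, with the 6 below 0.05 shaded. Replicate 3 (triangles) is the lowest in 5 of the 6 shaded genes, and Bard1 in replicate 3 lies farthest from 0. The same share among all tested genes below 0.05 was not computed.

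The coefficient of variation of CPM over the 3 libraries had a median of 16.5% in the set. The counting value, the inverse square root of a gene's mean count, had a median of 14.0%. With only 3 libraries, counting noise alone puts most genes below that value. The coefficient of variation was above the counting value in 18 of the 33 genes. Neither the share under counting noise alone nor the share over all tested genes was computed. The chi-square statistic divided by its degrees of freedom had a median of 1.19 in the set and 0.934 over all tested genes. The median under counting noise alone was not computed, so 0.934 does not show that genes varied no more than counting noise gives. By the same test, 13.2% of all tested genes were below an unadjusted p of 0.05. Chek2 (3.62%) and Fancb (2.95%) varied less than counting noise gives on average, and Rad51c (33.2%) and Fancg (42.4%) varied most.

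The set was set beside other lists of repair and replication genes. Of 47 further genes of the same pathways, 39 had means of 10 CPM or more and none was below 1 CPM, and the median over the list was 36.7 ± 1.90 CPM (SD, n = 3). The highest were Sem1, which encodes a small acidic protein that binds BRCA2 and the proteasome, with 672 ± 3.90 CPM, and the recombination accessory genes Swi5, with 530.0 ± 17.4 CPM, and Sfr1, with 523 ± 24.5 CPM (SD, n = 3). The lowest were the structure-specific nuclease genes Ercc4, with 5.26 ± 0.41 CPM, and Fan1, with 1.02 ± 0.34 CPM, and the shieldin gene Shld1, with 4.56 ± 1.32 CPM (SD, n = 3). Of 46 of these genes tested, 2 varied between the libraries after adjustment, against 2.80% of all genes tested, and they are named after their values were seen. Slx1b, a nuclease gene, had 11.9, 14.7 and 24.3 CPM (adjusted p = 0.0143 by the chi-square test), highest in replicate 3. Topbp1, an activator of ATR, had 98.8, 110.4 and 81.9 CPM (adjusted p = 0.0351 by the chi-square test), lowest in replicate 3.

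The 18 replication genes, whose products copy DNA in S phase, had a median of 126 ± 2.90 CPM (SD, n = 3), and all were above 10 CPM. The 13 end-joining genes, which serve the other main route of break repair, had a median of 6.92 ± 1.00 CPM (SD, n = 3), and 5 of them reached 10 CPM. The medians thus ran from replication genes through the further pathway genes and the 33 genes of the set to end joining, in CPM not divided by length.

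**Figure D5:**
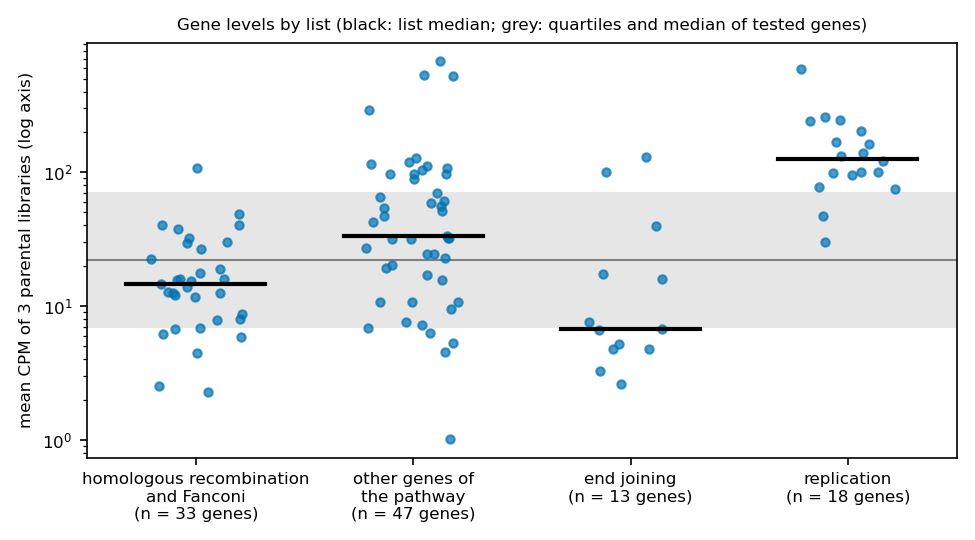
Mean CPM over the 3 parental libraries (log axis) of each gene in 4 lists, with the list median as a black bar and the quartiles and median of all tested genes in grey. The 33 genes of the set have a median of 14.5, below the median of tested genes, 22.2, and the replication list has a median of 126.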

How the data were processed

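Whole-number counts per gene were deposited by the authors, not normalized. Per the file headers, the build was GRCm38, the annotation GENCODE M25, and the tools Picard 2.18.26, Drop-seq tools 1.12 and STAR 2.7.5b, without trimming. Collapsing by molecular identifier and use of strand were not given in the sources used here. Intervals cover counting error only. Barcode columns were tied to samples through the deposited plate annotation, which gives 3 as WT, biological replicates 1 to 3. The 6 other columns of per-sample values, 2 sets of 3, could not be matched to the 3 STING-N153S samples and were not used. The planned edgeR comparison of the groups was therefore not run.

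CPM used library totals. Library variation was tested by chi-square across the 11118 genes whose expected counts were 5 or more in all 3 libraries, after median-ratio scaling, with Benjamini-Hochberg adjustment at 0.05. Both count tests were tested on simulated data. TMM factors came from edgeR 4.0.16, the rest from Python 3.11.15, numpy 2.4.6, pandas 2.3.3 and scipy 1.17.1. Positions and lengths are from GENCODE M21 on GRCm38. Every member is named, as are the 3 highest and 3 lowest of the further pathway list. The members and lists were chosen with earlier results of these data known.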

Additional observations from a re-analysis of the deposited data

How the results depend on the processing

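No paired analysis was possible because no column could be matched to a STING-N153S sample, so the alternatives planned for the group comparison were not run. The number of genes varying between parental libraries, 311, ran from 61 to 274 with 1 library left out, the lowest without replicate 3. It ran from 281 to 327 under other scalings, tests and count minimums. The number among the 33 repair genes was 0 in each of these settings. The numbers of the 33 at 1 CPM (33) and 10 CPM (23) were the same under each scaling and without each library, and their median CPM lay between 13.9 (replicate 1 left out) and 16.2 (the 20 most counted genes left out of the totals). The number of partner ratios on 1 side of 1 in all libraries, 10 of 18, was 13 per kb of transcript and 12 to 14 with 1 library left out, where fewer libraries have to agree. TMM scaling moved the level of each of the 33 genes by less than 1 SD. Leaving out 1 of 3 libraries cannot move a mean by 1 SD, so those values are no check of single levels. The alternatives for the partner ratios, for the window of head-to-head starts, for the lowest library and for the count at an unadjusted p below 0.05 were chosen after seeing the data. Counts of 7 to 30 per library, as for Fancg, Fanci, Fancc, Palb2 and Xrcc2, limit what could be detected between libraries.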

Other observations

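Among the end-joining genes, which the report gives only by their median, levels were uneven, and the genes named in this section were chosen after their values were seen. The break-binding subunits Xrcc6 and Xrcc5 (Ku70 and Ku80) had 97.9, 99.8 and 102 CPM and 36.3, 42.3 and 40.2 CPM in replicates 1 to 3, while Prkdc, the kinase that they recruit, had 2.61 ± 0.64 CPM (SD, n = 3). Parp1, which acts in the alternative route, was the highest at 129 ± 6.94 CPM, and Polq, the polymerase of that route, had 4.77 ± 0.61 CPM (SD, n = 3). The ligase gene Lig4 had 6.71 ± 1.09 CPM and its partner Xrcc4 17.2 ± 2.12 CPM (SD, n = 3). None of the 13 end-joining genes varied between the parental libraries by the chi-square test, with 0 at an unadjusted p below 0.05.

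Genes that steer a break between end joining and resection were spread over a wide range. Trp53bp1 (53BP1), which shields ends from resection, had 7.20 ± 1.38 CPM, and the shieldin genes Shld2 and Shld3 had 9.43 ± 1.00 and 10.7 ± 1.90 CPM (SD, n = 3). Rif1, the effector between them, had 55.9 ± 5.63 CPM, and Rbbp8 (CtIP), which starts resection, had 84.8, 93.5 and 111 CPM. These values are not divided by length.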
